A study of Arabidopsis thaliana with 20 samples.

Results

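Seedlings of a line with a hormone-inducible VND7 fusion were compared with seedlings of an empty-vector line when both had received dexamethasone (DEX) and cycloheximide (CHX). The comparison holds the 10 of the series' 20 arrays whose titles name DEX with CHX, 5 per line, and arrays of the same replicate number were paired. The first line is labelled 35S:VND7-VP16-GR and the second 35S:VP16-GR, and each is homozygous for a single insertion. Whole seedlings aged 10 days were kept in CHX for 2 h and then in CHX with DEX for 4 h. CHX and DEX were at 10 µM by the treatment protocol but at 10 mM by other label fields, and the labels do not settle which is right. Seedlings of both lines kept in CHX alone for 6 h, 5 arrays each, served to show how the lines differed without DEX. Every group, the controls included, carried the VP16-GR parts and received CHX. The 35S promoter is broadly active, so the fusion is not limited to vascular cells, and with 1 insertion line per construct the effect of VND7 and that of the insertion cannot be told apart.

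VND7 is a NAC transcription factor that acts as a master switch of xylem vessel differentiation, in which a cell lays down a patterned secondary wall of cellulose, xylan and lignin and then digests its own contents. VP16 is a viral activation domain, and GR is the steroid-binding domain of the glucocorticoid receptor, which holds a fused protein in the cytoplasm until DEX is present. CHX blocks protein synthesis, so a transcript that changes in its presence does not need a newly made protein, as far as the block is complete. How complete it was is not analysed here, and a line difference that was there before CHX is not covered. Because DEX and CHX were given on both sides, this comparison asks which transcripts differ between a line with VND7 in the fusion and one without it.

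Transcripts were measured on one-colour Affymetrix arrays with 22746 probe sets, of which 13436 (59.1%) could be named with a single gene. Signals are in the array software's units, with an array median of 159.7 to 186. Arrays of one group correlated with each other at a median r of 0.94 (lowest 0.933), across probe sets. No probe set was paired with VND7, so its own level is not analysed here. Whole seedlings were used, so fewer cells of a type and less RNA per cell cannot be told apart. No label says that replicates came from separate cultures, so the p-values below rest on a spread between samples that may be technical.

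With DEX, transcripts of AT1G70500 and AT1G23460, pectin-cleaving enzymes of the polygalacturonase family, were 47.6-fold and 20.2-fold higher in the VND7 line than in the empty-vector line. Transcripts of a pectin methylesterase (AT3G47400), of the lignin peroxidase PRX72, of the xylan acetylation gene TBL34 and of the carboxypeptidase genes scpl20 and scpl48 were also higher. Lower ones included the peroxidases AT5G64100 and AT3G01190, the resistance-type gene AT4G19520 and the auxin-related genes GH3.17 and LBD16. Against CHX alone, DEX came with a rise of these lower genes in the empty-vector line (log2 1.26 to 2.02). In the VND7 line they moved by -0.49 to 0.12. Most measured genes of the polygalacturonase, pectin methylesterase, peroxidase, early auxin and GH3 lists did not pass, as given below. In all, 437 probe sets were higher in the VND7 line (1.92% of those tested, 229 of them named, 187 by at least 2-fold) and 300 were lower (1.32%, 168 named, 117 by at least 2-fold), by limma at a Benjamini-Hochberg adjusted p under 0.05. The median log2 difference was 0.84 for the higher ones and -0.75 for the lower ones, and -0.00796 over all probe sets. Before adjustment, p was under 0.05 for 1353 probe sets upwards and 1301 downwards. Without the pairing by replicate number, 196 were higher and 104 lower.

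All 5 arrays of one line lay above all 5 of the other for 294 probe sets upwards (1.29% of all) and 205 downwards (0.901%). Of the 437 that passed upwards 237 had such groups, as did 139 of the 300 that passed downwards. Earlier results on these data placed the replicates in sets (1, then 2 with 3, then 4 with 5), which no label gives. The median log2 difference of the higher probe sets was 1.12 in the first set, 0.90 in the second and 0.71 in the last. For the lower ones it was -0.72, -0.78 and -0.82. The direction was shared by 437, 437 and 436 of the higher and by 295, 300 and 300 of the lower probe sets in those sets, and choosing the probe sets on the same arrays favours this.

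Polygalacturonases cut the backbone of pectin, the gel-like polysaccharide of primary walls and of the layer between cells. AT1G70500, of this family, had signals of 7742, 6188, 5475, 4160 and 4343 in replicates 1 to 5 of the VND7 line with DEX. In the empty-vector line with DEX they were 88.0, 149, 81.7, 129 and 140. Every VND7 array thus lay far above every empty-vector array. The means were 5582 ± 1466 and 117 ± 30.6 (SD, n = 5), a 47.6-fold difference (log2 5.57 ± 0.21, SE, adjusted p = 3.81e-13). Its relative AT1G23460 had 4297, 2596, 2928, 2284 and 2291 in the VND7 line and 175, 141, 82.8, 168 and 147 in the other line. The groups did not overlap, and the difference was 20.2-fold (log2 4.34 ± 0.16, adjusted p = 3.81e-13). Transcripts of related genes may contribute to this signal, since the probe set carries the suffix for sets that match more than 1 transcript. Of 45 measured genes of the family these 2 were higher, 0 were lower and 43 did not pass. Over all probe sets 1.92% were higher and 1.32% lower. The summed signal of the 45 was 9662 to 15760 with VND7 and 3442 to 4038 without, while the family's median log2 difference was -0.076.

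Pectin methylesterases remove methyl groups from pectin, after which polygalacturonases can cut it. AT3G47400, of this family, had signals of 943, 330, 431, 358 and 327 in the VND7 line and 39.6, 51.5, 49.3, 50.5 and 54.3 in the empty-vector line. Replicate 1 of the VND7 line stood highest, and the groups did not overlap (8.92-fold, log2 3.16 ± 0.27, adjusted p = 1.39e-07). Without that array the gene still passed, as it did without any other (log2 2.90 to 3.33). Among the 44 measured genes of the family it was the 1 that was higher. The 3 that were lower were AT1G02810, PME61 and AT3G49220. These counts stand beside 1.92% higher and 1.32% lower over all probe sets. AT1G02810 had 295, 118, 211, 194 and 166 against 1146, 291, 438, 624 and 626, so that the highest VND7 signal just passed the lowest empty-vector signal, while relative to the array medians the groups were apart (log2 -1.58 ± 0.20, adjusted p = 3.69e-05). PME61 and AT3G49220 differed by -0.77 ± 0.21 and -0.29 ± 0.07 (adjusted p = 0.0426 and 0.0212). Both had overlapping groups, and both calls were fragile. That of PME61 was lost in 14 of 17 alternative settings, among them the omission of any single array with DEX (adjusted p up to 0.141), and without the pairing (0.234). That of AT3G49220 was lost in 8 of 17, among them the fit without the pairing (0.9999) and the omission of replicate 2 or 4 of the empty-vector line or any of replicates 1 to 4 of the VND7 line (up to 0.0922). With the pseudocount PME61 was at -0.49. AT5G38610 belongs to a family of inhibitors of invertases and pectin methylesterases. Its signals were 1803, 1557, 1138, 1158 and 890 against 122, 161, 177, 179 and 141, with no overlap (8.19-fold, log2 3.03 ± 0.17, adjusted p = 2.31e-10).

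**Figure D1:**
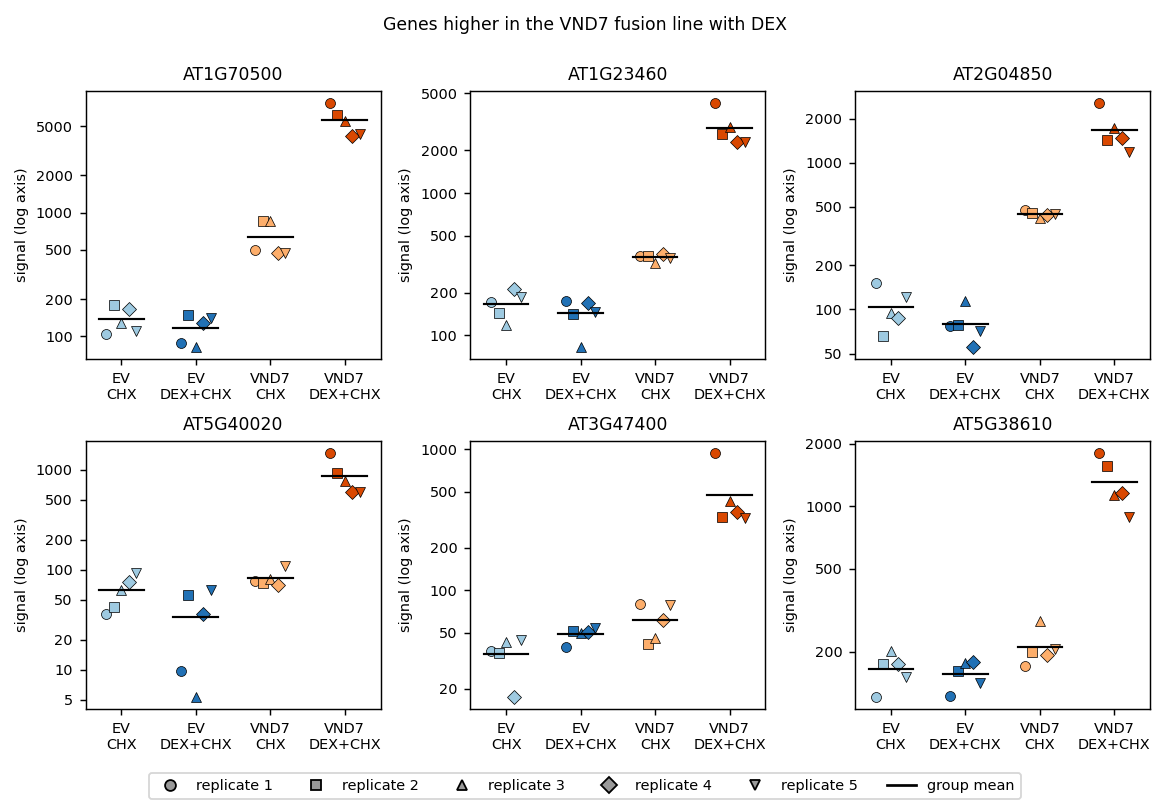
Signal (log axis) of 6 genes that were higher in the VND7 line with DEX, in each of the 20 arrays by line and treatment. Each symbol is an array, its shape gives the replicate number and the bar is the group mean. In each panel all 5 arrays of the VND7 line with DEX lie above all arrays of the other 3 groups, and AT1G70500, AT1G23460 and AT2G04850 are also higher in the VND7 line with CHX alone.

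Among genes of the secondary wall, few had a named probe set. PRX72 (AT5G66390), a peroxidase that takes part in lignin formation, had signals of 2133, 1291, 1416, 1548 and 1559 with VND7 and 409, 541, 407, 599 and 624 without. The groups did not overlap (3.08-fold, log2 1.62 ± 0.15, adjusted p = 4.81e-07). The other 4 measured genes of the 29 on the lignin list did not pass. They included HCT, of monolignol synthesis, at a log2 difference of 0.22 ± 0.12 (adjusted p = 0.518). TBL34, which takes part in the acetylation of xylan, had 2280, 1908, 1774, 1529 and 1668 against 234, 497, 418, 574 and 721, with no overlap (3.96-fold, log2 1.98 ± 0.21, adjusted p = 2.93e-06). Of the 25 xylan genes listed 3 were measured and 0 passed. IRX10, a xylan synthase named GUT2 in the tables, was at 0.52 ± 0.14 (adjusted p = 0.0518), IRX15 at 1.29 ± 0.62 and IRX15-L at -0.33 ± 0.24 (adjusted p = 0.439 and 0.678). These p-values do not show that the 3 genes were alike in the lines. No member of the lists of secondary wall transcription factors (35 genes) and of secondary wall cellulose synthesis (7 genes) had a named probe set.

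Blue copper proteins, or cupredoxins, are small extracellular copper-binding proteins. AT3G27200, of this group, had 2087, 887, 1156, 897 and 692 against 308, 168, 171, 124 and 123, with replicate 1 highest in both lines and no overlap (6.28-fold, log2 2.65 ± 0.15, adjusted p = 3.40e-10). A second cupredoxin, AT5G26330, singled out after its values were seen, was 5.06-fold higher (319 ± 110 against 60.6 ± 10.9, adjusted p = 7.76e-07). AT4G08160, of a family of xylanases and also singled out afterwards, was 2.79-fold higher (225 ± 73.7 against 80.3 ± 21.1, adjusted p = 4.53e-05). The thaumatin family includes pathogenesis-related proteins. Of 5 measured genes on the list of pathogenesis-related and thaumatin genes 0 passed. Their log2 differences ran from -0.81 to -0.00022, with a median of -0.52. AT5G40020, a thaumatin family member outside that list, had 1475, 922, 779, 603 and 599 against 9.8, 55.4, 5.3, 36.3 and 63.1. Every VND7 array was above every other, but the empty-vector signals lay near the floor of the scale, so the size of the difference is not settled (log2 5.16 ± 0.48, adjusted p = 3.99e-07, or 3.40 with a pseudocount of 52.9). Expansins loosen walls. Of 30 measured genes of expansins and xyloglucan enzymes 1 passed, beside 1.92% higher and 1.32% lower over all probe sets. This was EXPB1, at 0.50 ± 0.13 (adjusted p = 0.0339). Its call was lost in 11 of 17 settings: without the pairing (0.239), without the variance trend, with the 10 DEX arrays alone, and on omission of any array other than replicate 3 of the empty-vector line and replicate 5 of the VND7 line (up to 0.13).

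Vessel elements end their differentiation by digesting their contents, for which proteases and nucleases are made. The serine carboxypeptidase-like gene scpl20 had signals of 1540, 1098, 1241, 823 and 563 with VND7 against 204, 211, 216, 147 and 180. Its relative scpl48 had 1937, 877, 1019, 682 and 684 against 379, 371, 253, 281 and 261. In neither gene did the groups overlap. They were 5.23-fold and 3.15-fold higher (log2 2.39 ± 0.20 and 1.65 ± 0.14, adjusted p = 1.03e-07 and 9.05e-08). Another, scpl25, passed at 0.33 ± 0.09 with overlapping groups (adjusted p = 0.0359), and the other 26 of 29 measured members did not pass. The share over all probe sets was 1.92% higher and 1.32% lower. The call of scpl25 was lost in 11 of 17 settings: without the pairing (0.159), without the variance trend, after quantile normalization, with the 10 DEX arrays alone, and on omission of replicate 1, 2 or 4 of the empty-vector line or any of replicates 1 to 4 of the VND7 line (up to 0.137).

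SBTI1.1 was the 1 of the 8 genes on the subtilase list that passed, beside 1.92% higher and 1.32% lower over all probe sets. It had 363, 386, 536, 362 and 222 against 79.3, 109, 107, 87.2 and 79.6, without overlap (3.92-fold, log2 1.97 ± 0.14, adjusted p = 1.79e-08). AT2G45040, a matrix metalloproteinase, had 328, 174, 242, 137 and 109 against 9.1, 34, 16.5, 42.6 and 40.4 (log2 2.90 ± 0.52, adjusted p = 0.00147, or 1.57 with the pseudocount). Another gene of that kind, named MMP in the tables, was lower instead, at -0.62 ± 0.13 (adjusted p = 0.00687), with overlapping groups, and its call was lost without the pairing (0.0575) and with the 10 DEX arrays alone (0.0843). On the list of vessel cell death 2 of 13 genes were measured. One was scpl48, and the other, GAMMA-VPE, a vacuolar protease, was at -0.11 ± 0.12 (adjusted p = 0.787).

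On the protease list 3 of 35 measured genes were higher, 1 was lower and 31 did not pass. The higher ones were scpl20, scpl48 and scpl25 and the lower one was MMP, all given above. The list's median log2 difference was 0.0012, and 1.92% of all probe sets were higher and 1.32% lower. On the nuclease list 1 of 22 genes was measured, EME1A, which did not pass (-0.13 ± 0.28, adjusted p = 0.921). The genes that follow lie outside those lists and were singled out after their values were seen. The aspartyl proteases AT4G04460, AT1G77480 and AT2G03200 were 3.94-fold, 2.90-fold and 2.1-fold higher in the VND7 line (adjusted p = 7.54e-06, 2.49e-07 and 1.29e-05). The ribonuclease gene AT1G14210, of the T2 family, had 715, 666, 699, 705 and 564 against 222, 215, 210, 279 and 290, with no overlap (2.77-fold, log2 1.47 ± 0.12, adjusted p = 7.71e-08). SIM, an inhibitor of cyclin-dependent kinases that favours endoreduplication in trichomes, had 347, 344, 563, 341 and 285 against 152, 175, 152, 135 and 98.5 (2.61-fold, log2 1.38 ± 0.13, adjusted p = 4.80e-07), and its groups did not overlap either.

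Receptors and regulators were also among the higher genes. AT4G28650, also named PXL2, encodes a receptor kinase related to PXY, the receptor of vascular stem cells. It had 997, 494, 559, 457 and 368 against 124, 68.7, 154, 88.6 and 81.5, without overlap (5.46-fold, log2 2.45 ± 0.20, adjusted p = 5.75e-08). It was the 1 of 6 measured procambium genes that passed, beside 1.92% higher and 1.32% lower over all probe sets. The ligand genes CLE41 and CLE44 were at -0.049 ± 0.14 and 0.019 ± 0.14 (adjusted p = 0.947 and 0.985). AT1G79620, a leucine-rich repeat receptor kinase, had 204, 198, 309, 166 and 140 against 36.6, 1.7, 28, 16.6 and 7.3, with the second line near the floor (log2 4.08 ± 0.50, adjusted p = 1.93e-05, or 1.84 with the pseudocount). AT4G18450, an AP2/ERF transcription factor, had 244, 268, 260, 106 and 128 against 30.4, 12.7, 32.5, 17.1 and 15.5 (log2 3.21 ± 0.45, adjusted p = 9.10e-05, or 1.72 with the pseudocount). AT2G04850, a membrane protein of an auxin-responsive family, had 2563, 1437, 1717, 1483 and 1188 against 76.6, 78.4, 114, 55.4 and 71.0. Its groups were far apart (21.0-fold, log2 4.39 ± 0.17, adjusted p = 4.79e-13).

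The remaining genes among the 16 largest higher differences, taken over named genes whose brighter line reached at least -1 on the log2 scale against the array median, were AT1G10800, AT1G24600, AT5G02640, AT3G52900, AT5G60720 and AT5G19870. AT3G52900 had 882, 628, 672, 395 and 305 against 61.5, 104, 91.8, 68.2 and 67.5 (6.97-fold, adjusted p = 7.96e-09). AT5G60720 had 564, 255, 285, 253 and 243 against 57.6, 36.6, 60.4, 52.8 and 42.6 (6.14-fold, adjusted p = 8.74e-09), with replicate 1 standing apart in the VND7 line. AT1G10800 had 302, 235, 225, 185 and 192 against 14.8, 46.9, 3.9, 13.8 and 42.8 (log2 3.69 ± 0.45, adjusted p = 1.93e-05). These 3 genes had no overlap between the lines, as was so for all 16. Choosing the 16 by size on the same arrays favours this, and 1.29% of all probe sets had such groups upwards. AT1G24600, AT5G02640 and AT5G19870 differed by 3.23 ± 0.46, 2.90 ± 0.46 and 2.6 ± 0.28 (adjusted p = 0.000111, 0.000442 and 3.98e-06). With the pseudocount the log2 differences of AT1G10800, AT1G24600, AT5G02640 and AT5G19870 were 1.88, 1.71, 1.67 and 1.57, and each still passed.

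On the lower side were class III peroxidases. These are secreted enzymes that use hydrogen peroxide, some of them to stiffen walls. AT5G64100, of this family, had signals of 1578, 942, 1213, 1426 and 2025 in the VND7 line and 8441, 4878, 4655, 6728 and 8780 in the empty-vector line. The groups were clearly apart (1437 ± 407 against 6696 ± 1928, 4.66-fold lower with VND7, log2 -2.22 ± 0.11, adjusted p = 2.72e-11). AT3G01190 had 1056, 830, 761, 1314 and 1372 against 3479, 3351, 3421, 5869 and 5924, and replicates 4 and 5 were highest in both lines. It was 4.1-fold lower (log2 -2.04 ± 0.09, adjusted p = 9.30e-12). AT5G17820 had 671, 590, 428, 670 and 797 against 1786, 1713, 1712, 2951 and 3499, again without overlap (3.6-fold lower, log2 -1.85 ± 0.14, adjusted p = 2.06e-08). From CHX alone to DEX, AT3G01190 and AT5G17820 changed by 2.02 and 1.43 in the empty-vector line. In the VND7 line each changed by -0.21.

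Of the 55 measured peroxidase genes 3 were higher, 5 were lower and 47 did not pass, beside 1.92% higher and 1.32% lower over all probe sets, with a median log2 difference of -0.064. Beside PRX72 the higher ones were AT2G43480 (1.1 ± 0.24, adjusted p = 0.0097) and AT4G36430 (0.67 ± 0.13, adjusted p = 0.00238). The other lower ones were AT1G14550 (-0.53 ± 0.09, adjusted p = 0.000551) and AT4G30170 (-0.51 ± 0.09, adjusted p = 0.00169).

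Other genes among the 12 largest lower differences also had high signals. AT4G19520, a resistance-type gene with TIR, nucleotide-binding and leucine-rich repeat domains, had 342, 325, 375, 525 and 400 in the VND7 line against 1471, 1584, 1587, 2452 and 2730. The highest VND7 array lay well below the lowest empty-vector array (4.91-fold lower, log2 -2.30 ± 0.10, adjusted p = 2.43e-12). AT5G43520, a protein with cysteine- and histidine-rich C1 domains, had 383, 516, 531, 847 and 958 against 1875, 1995, 2405, 3625 and 4908 (4.52-fold lower, log2 -2.18 ± 0.14, adjusted p = 1.71e-09). AT1G14960, of the family of the pollen allergen Bet v 1 and the major latex proteins, had 59.9, 67.4, 64.3, 69.0 and 48.1 against 272, 249, 228, 398 and 564. In both genes the groups did not overlap. The latter was 5.27-fold lower (log2 -2.40 ± 0.23, adjusted p = 5.60e-07).

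GH3.17, an enzyme that conjugates auxin to amino acids, had 308, 130, 157, 184 and 144 against 818, 428, 438, 860 and 1027 (3.83-fold lower, log2 -1.94 ± 0.16, adjusted p = 9.05e-08). LBD16, which auxin induces and which acts in starting lateral roots, had 52.7, 105, 120, 83.4 and 62.9 against 194, 176, 267, 214 and 274 (2.74-fold lower, log2 -1.46 ± 0.20, adjusted p = 9.99e-05). Neither gene had overlapping groups. From CHX alone to DEX, LBD16 changed by 1.65 ± 0.20 in the empty-vector line and by 0.12 ± 0.20 in the VND7 line. LBD16 was the 1 of 6 measured early auxin genes that passed, and GH3.17 the 1 of 5 measured GH3 genes, beside 1.32% lower over all probe sets. The auxin-induced genes GH3.1 and GH3.3 were at 0.26 ± 0.13 and -0.21 ± 0.09 (adjusted p = 0.487 and 0.303). IAA18, a repressor of auxin signalling, was higher by 0.34 ± 0.08 (adjusted p = 0.0230), with overlapping groups. That call was lost in 9 of 17 settings: without the pairing (0.847), without the variance trend, with the 10 DEX arrays alone, and on omission of replicate 2, 4 or 5 of the empty-vector line or replicate 3, 4 or 5 of the VND7 line (up to 0.101).

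HAT2, an auxin-induced homeobox gene, and LEP, an AP2/ERF factor of leaf development, were singled out after their values were seen. HAT2 had 481, 541, 497, 442 and 318 against 1500, 1284, 1465, 1143 and 1489 (3.05-fold lower, adjusted p = 1.60e-09). LEP had 105, 74.7, 87.0, 99.5 and 88.6 against 321, 269, 282, 497 and 451 (3.91-fold lower, adjusted p = 1.61e-07). Both genes had separate groups.

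Several of the largest negative differences came from genes that were near the floor in the VND7 line. AT4G31470, a CAP protein related to PR-1, had 3.6, 8.5, 4.9, 5.4 and 3.9 against 57.1, 156, 133, 199 and 165 (log2 -4.71 ± 0.63, adjusted p = 5.71e-05, or -1.69 with the pseudocount). AT4G17860 had 9.5, 19.7, 4.8, 3.8 and 9.0 against 136, 83.0, 73.3, 175 and 139 (log2 -3.87 ± 0.59, adjusted p = 0.000255, or -1.46). AT1G28160, an AP2/ERF factor, had 45.8, 21.4, 29.1, 11.5 and 29.8 against 122, 241, 175, 300 and 309 (log2 -3.12 ± 0.39, adjusted p = 2.19e-05, or -1.78). In these 3 genes the direction was clear in every pair, and the size rests on the treatment of low signals. AT3G57950, AT3G08490, AT3G03230, AT1G44160 and AT1G61750 differed by -2.93, -2.86, -2.71, -2.17 and -2.16 (adjusted p = 0.00816, 0.0122, 0.00104, 0.000162 and 0.00619), and by -1.08, -1.56, -1.50, -1.18 and -1.29 with the pseudocount. The calls of AT3G57950 and AT1G61750 were lost without the pairing (adjusted p = 0.0662 and 0.0628), and that of AT3G08490 without replicate 5 of the empty-vector line (0.0611) or replicate 4 of the VND7 line.

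**Figure D2:**
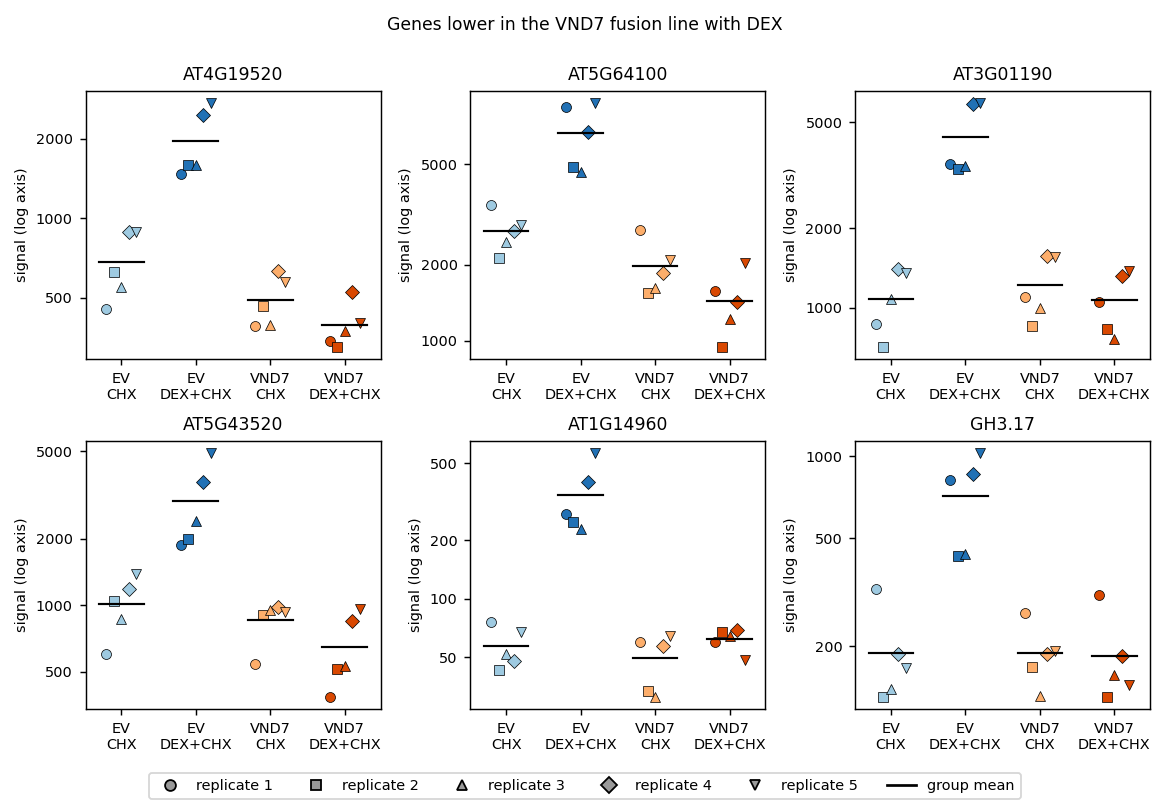
Signal (log axis) of 6 genes that were lower in the VND7 line with DEX, in each of the 20 arrays by line and treatment. Each symbol is an array, its shape gives the replicate number and the bar is the group mean. The empty-vector arrays with DEX lie above those of the VND7 line with DEX in all 6 panels, and for AT1G14960 their mean is 342 against 57.1 in the same line with CHX alone.

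The arrays without DEX, which share no sample with the comparison above, showed how far the lines differed in CHX alone. There 18 probe sets were higher in the VND7 line (0.0791%) and 3 were lower (0.0132%), with an unadjusted p under 0.05 for 840 and 796. These counts moved with the processing: they were 6 and 0 without the pairing and 10 and 1 without the variance trend. The count of lower ones was 5 without replicate 2 of the empty-vector line and 1 without replicate 4 or 5 of the VND7 line. Of the 18, 17 were also higher with DEX, which is 94.4% of the 18 and 3.89% of the 437. All 3 of the lower ones were also lower with DEX (1% of the 300). Both comparisons take their spread from the same fit of 20 arrays, so the calls are not fully independent. The 17 had a median log2 difference of 3.25 with DEX and 1.14 without, and 11 of them differed more with DEX by the test of the difference itself.

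Among named genes the 5 higher without DEX were AT1G70500, AT2G04850, AT1G23460, AT2G37750 and AT5G61340, the last 2 of which were singled out after their values were seen. AT1G70500 stood at 632 ± 202 against 138 ± 32.9 without DEX (4.56-fold, adjusted p = 1.04e-05), and its line difference was larger with DEX by 3.38 ± 0.29 on the log2 scale (adjusted p = 1.04e-06). AT2G04850 stood at 450 ± 20.1 against 104 ± 32.9 (4.55-fold, adjusted p = 3.88e-07) and gained 2.21 ± 0.24 with DEX (adjusted p = 1.31e-05). AT1G23460 stood at 354 ± 19.8 against 166 ± 35.9 (2.19-fold, adjusted p = 0.00273) and gained 3.2 ± 0.23 (adjusted p = 8.70e-08). For AT2G37750 the log2 difference was 0.93 without DEX and 2.07 with it, and for AT5G61340 it was 0.71 and 1.67. The 1 named gene lower without DEX was AT1G04800, also singled out afterwards, at -0.71 without and -0.80 with DEX (test of the difference, adjusted p = 0.967).

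The 437 probe sets higher with DEX had a median difference of 0.20 without it, and 374 of them (85.6%) kept a positive sign, where 53.2% of all probe sets were positive. The 300 lower ones had a median of 0.000445 without DEX, with 149 (49.7%) negative, where 46.8% of all were negative. Over all 22746 probe sets the differences with and without DEX correlated at r = 0.107 (Spearman 0.121), and over the 11367 above the array median at r = 0.451 (0.263), as a description across probe sets that share arrays within each comparison.

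**Figure D3:**
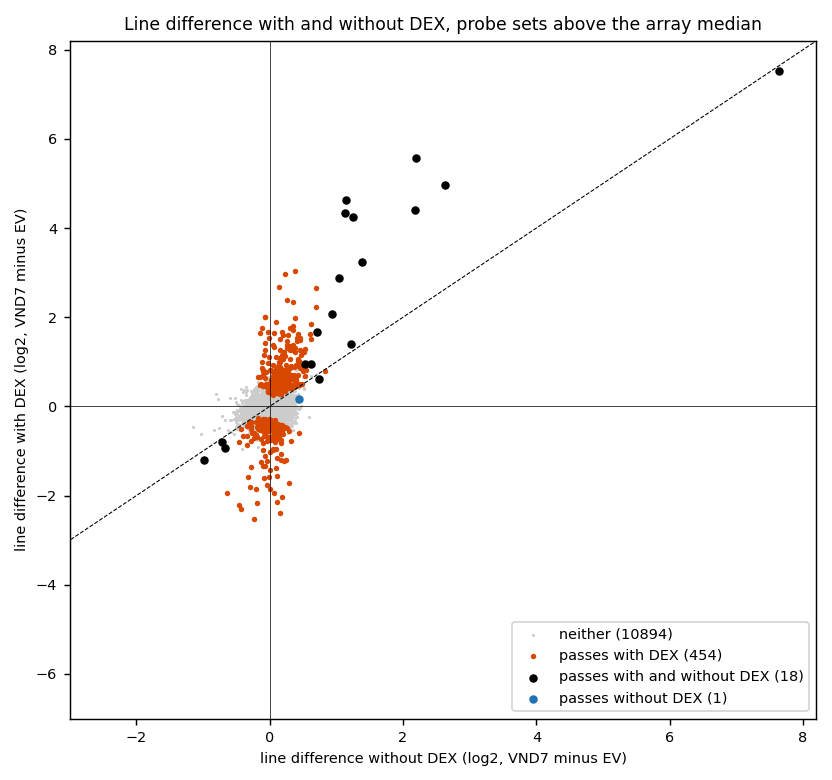
Line difference with DEX (vertical axis, log2) against that without DEX (horizontal axis, log2), both as the VND7 line minus the empty-vector line, for probe sets above the array median. Orange points pass with DEX (454), black points with and without (18), the blue point without DEX (1) and grey points in neither (10894), and the dashed line marks equal differences. Most orange points lie near 0 on the horizontal axis, while the point at 7.53 with DEX lies close to the dashed line.

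An unnamed probe set had the largest difference of all and was singled out after its values were seen. It stood at 5659 ± 1186 in the VND7 line and 32.4 ± 13.2 in the other with DEX (185-fold), and at 5884 ± 1520 and 30 ± 8.88 without (200-fold). DEX made no detectable change in its line difference (-0.12 ± 0.29, adjusted p = 0.973). The largest negative difference was that of another unnamed probe set, also singled out afterwards, with 36.1, 63.0, 24.8, 3.0 and 61.2 in the VND7 line against 2133, 1964, 2210, 2684 and 3519 (log2 -6.60 ± 0.48, adjusted p = 1.79e-08). Without DEX the lines stood at 46.1 ± 9.68 and 48.2 ± 19.1, and the test of the difference gave -6.61 ± 0.69 (adjusted p = 8.42e-06).

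A line difference with DEX that is absent without it can come with a DEX response in either line. The test of whether the line difference changed with DEX was passed upwards by 121 probe sets (0.532%) and downwards by 118 (0.519%), or by 51 and 38 without the pairing. Of the 16 genes with the largest higher differences 12 passed it. AT1G79620, AT4G18450, AT2G45040 and AT5G02640 did not (adjusted p = 0.637, 0.171, 0.252 and 0.629). Of the 12 genes with the largest lower differences 8 passed, and AT4G17860, AT3G08490, AT3G03230 and AT1G61750 did not (adjusted p = 0.236, 0.133, 0.0646 and 0.113). Both sets were chosen for their line difference with DEX, on arrays that also enter this test, which favours passing.

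The DEX response within each line shares arrays with the line difference, so its values are given side by side. It passed upwards for 211 probe sets (0.928%) and downwards for 25 (0.11%) in the VND7 line, and for 150 (0.659%) and 12 (0.0528%) in the empty-vector line. For the 16 higher genes the log2 response to DEX was 1.40 to 3.33 in the VND7 line (median 2.43) and -1.34 to 0.53 in the empty-vector line (median -0.21). AT3G47400 responded by 2.86 ± 0.27 and 0.53 ± 0.27 (adjusted p = 1.79e-06 and 0.641). For the 12 lower genes the response was -1.28 to 1.03 in the VND7 line (median -0.32) and 1.26 to 4.27 in the empty-vector line (median 2.66). GH3.17 was at 189 ± 48.4 with CHX alone in the VND7 line and at 189 ± 78.9 in the other. With DEX it stood at 185 ± 72.0 and 714 ± 268. HAT2 went from 518 ± 31.6 to 456 ± 84.7 in the VND7 line and from 559 ± 72.8 to 1376 ± 157 in the empty-vector line, where the rise passed (adjusted p = 1.79e-07). AT5G64100 moved in both lines: it fell by 0.49 ± 0.11 with VND7 and rose by 1.26 ± 0.11 without (adjusted p = 0.0240 and 5.83e-07).

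**Figure D4:**
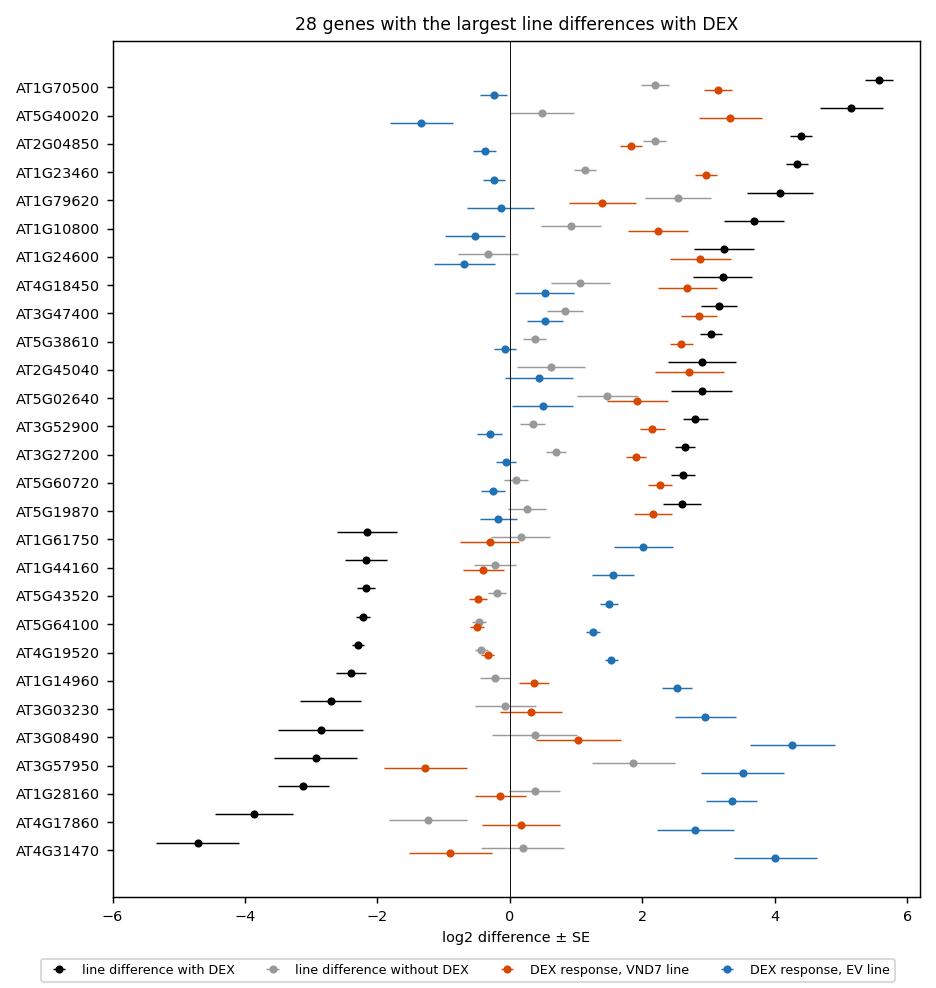
Log2 differences with SE for the 16 genes with the largest higher and the 12 with the largest lower line differences. Black marks the line difference with DEX, grey that without DEX, orange the DEX response in the VND7 line and blue the DEX response in the empty-vector (EV) line. Among the higher genes the orange points lie at 1.40 to 3.33, and among the lower genes the blue points lie at 1.26 to 4.27.

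Counts on the family lists, which need not hold every member, are set against 1.92% higher and 1.32% lower over all probe sets. In the family of trichome birefringence-like proteins, to which TBL34 belongs, 1 of 23 measured genes was higher and 2 were lower, with a median of -0.049. The lower ones were TBL38 (-1.07 ± 0.18, adjusted p = 0.000637) and AT2G31110 (-0.69 ± 0.12, adjusted p = 0.001675), whose calls were lost without the pairing (0.272 and 0.827). For serine carboxypeptidase-like genes the median was 0.15. Cytochrome P450 genes had 1 of 24 higher, CYP71B23 at 0.81 ± 0.12 (adjusted p = 0.000247, and 0.153 without the pairing). Of 43 measured UDP-glycosyltransferases on the first list 0 passed, and of 51 matched by symbol UGT76B1 did (0.495 ± 0.12, adjusted p = 0.0233), with overlapping groups. The call of UGT76B1 was lost in 7 of 17 settings: without the pairing (0.9999), with the 10 DEX arrays alone, and on omission of replicate 1, 4 or 5 of the empty-vector line or replicate 2 or 4 of the VND7 line (up to 0.109). Among glutathione transferases, which conjugate toxic compounds, 1 of 12 was higher and 1 lower. GSTU22 stood at 10449 ± 1201 against 6740 ± 1573 (0.66 ± 0.11, adjusted p = 0.000734, and 0.237 without the pairing), and GSTU27 at 244 ± 41.2 against 617 ± 83.7 (-1.35 ± 0.11, adjusted p = 9.05e-08).

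**Figure D5:**
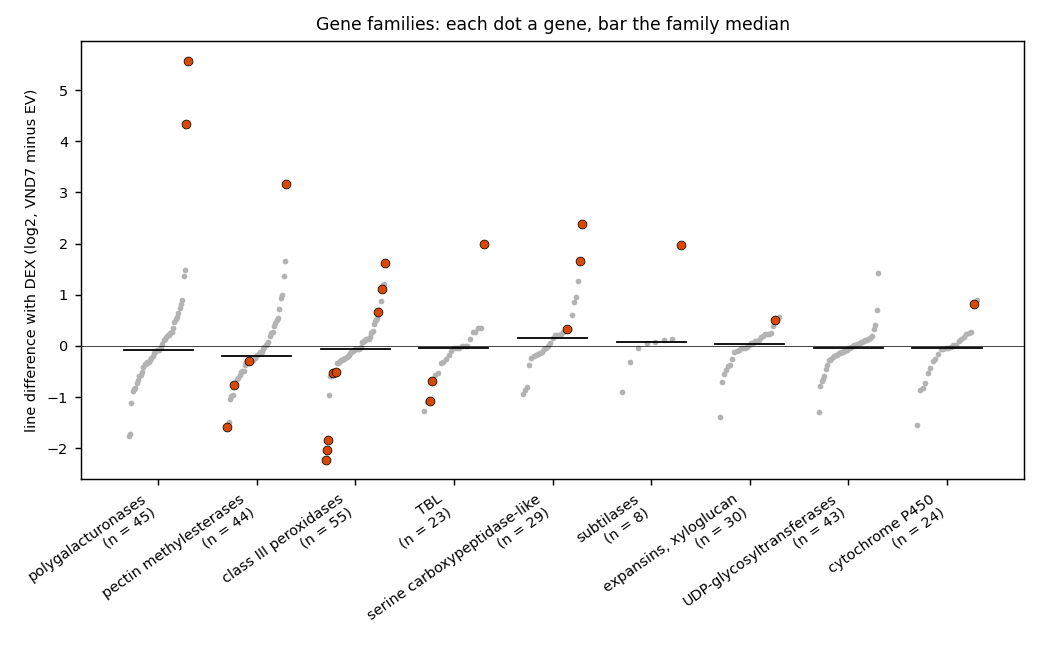
Line difference with DEX (log2, VND7 line minus empty-vector line) for each measured gene on 9 family lists, with the number measured below each name. Each dot is a gene, orange dots pass at an adjusted p under 0.05 and the bar is the family median. The medians lie between -0.19 and 0.15, and the polygalacturonases at 4.34 and 5.57 stand highest.

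Markers of other tissues were measured to see whether the makeup of the seedlings moved with the line. For mesophyll 3 of 25 marker genes were measured and 0 passed, with a summed signal of 34340 to 49230 in the VND7 line and 38700 to 52610 in the other. For root hairs 2 of 12 were measured and 0 passed (64.7 to 126.8 against 40.3 to 150.7), with EXPA7 and EXPA18 both under the array median. For epidermis and guard cells 4 of 14 were measured and 0 passed (1669 to 3118 against 1612 to 3517). The phloem gene SWEET11 was at 0.010 ± 0.17 (adjusted p = 0.994). None of the endodermis markers had a named probe set. Of 6 measured stress and defence genes 0 passed, with log2 differences from -0.63 to 0.095. Among them were GSTU25 (0.095 ± 0.10) and WRKY53 (-0.20 ± 0.12), with adjusted p of 0.788 and 0.587. Reference genes, with 3 of 14 measured, lay between -0.099 and -0.013.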

How the data were processed

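Values were the series' table of natural log signals, deposited by the authors. The submitters' processing notes name MAS5, without a version. Each column's median was 0 and its exponentials were whole multiples of a single step (100% of values checked per array, tolerance 0.02 of a step), read as the 0.1 in which signals are written. The recovered signals had a trimmed mean of 496.1 to 496.6 and no missing values. Precision is limited by having 5 arrays per group.

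Log2 values were fitted with limma 3.58.1 in R 4.3.3 (lmFit, eBayes with a variance trend) over 20 arrays, with 4 group means and the replicate number as a block (12 residual degrees of freedom). Adjusted p-values are Benjamini-Hochberg over 22746 probe sets. Replicate numbers were read as pairing arrays because deviations from group means correlated above 0.1 in all 30 same-numbered pairs of arrays (0.558 to 0.835, and 0.558 to 0.779 in the 5 pairs with DEX). Pairs with unlike numbers were not compared, so these values cannot tell pairing by number from membership of the same set of replicates. Sets of replicates (1, 2 with 3, 4 with 5) follow earlier results on such deviations, not a label. The fit was tested on simulated data.

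Probe sets were named through the platform table and RefSeq (TAIR10.1, for names alone). A further 503 had several genes, 77 had 1 unmatched gene and 8730 were not listed. Most names are locus identifiers, and the roles given are background knowledge. Named genes were, among those passing with DEX with a higher group mean of at least -1 on the log2 scale relative to the array median, the 16 largest higher, the 12 largest lower, and up to 4 per list by adjusted p. Members and lists were chosen with earlier results of these data known. Families by locus or symbol were added, and the AP2/ERF pattern corrected, after the table was opened. Of 54 lists 14 had no measured member. Promoter motifs were not analysed here.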

Additional observations from a re-analysis of the deposited data

Results flagged for a closer look

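Among the 51 genes named by the rule, 10 of 102 groups of 5 arrays (9.8%) held an array far from the others of its line with DEX, by the gap to its nearest neighbour over the group's range against Dixon's limit of 0.71. Chance would give about 1 in 20 such groups if the 5 arrays were independent and normally spread. The replicates were placed in sets by earlier results, with replicate 1 in a set of its own, so that rate may not hold here. The 9.8% is therefore given as a description. In the empty-vector line the ratio was 0.714 for replicate 3 of AT1G23460, 0.775 and 0.837 for replicate 2 of AT1G24600 and AT5G19870, and 0.736, 0.906 and 0.717 for replicate 1 of AT3G47400, GSTU22 and AT2G31110. In the VND7 line it was 0.77, 0.722 and 0.792 for replicate 1 of AT5G60720, AT2G31110 and AT1G44160, and 0.759 for replicate 3 of EXPB1. Replicate 1, alone in its set, gave 6 of the 10, and whether this follows from the sets was not tested.

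For 33 of the 51 genes the line difference with DEX was unlike that without, by limma's test of the difference at an adjusted p under 0.05. Over all probe sets 0.532% passed this test upwards and 0.519% downwards, and the 51 genes were chosen for passing with DEX on arrays that also enter it. The values are log2 differences with DEX minus those without. Among higher genes they were 3.38 for AT1G70500, 4.67 for AT5G40020, 2.21 for AT2G04850, 3.2 for AT1G23460, 2.77 for AT1G10800, 3.56 for AT1G24600, 2.33 for AT3G47400, 2.66 for AT5G38610 and 2.46 for AT3G52900. They were 1.96 for AT3G27200, 2.53 for AT5G60720, 2.34 for AT5G19870, 2.00 for AT4G28650, 2.12 for scpl20, 1.61 for TBL34, 2.00 for SBTI1.1, 1.59 for scpl48 and 1.2 for PRX72. Among lower genes they were -1.25 for TBL38, -1.07 for GSTU27, -1.53 for LBD16, -1.25 for AT1G02810, -1.64 for AT5G17820, -2.0 for GH3.17, -2.22 for AT3G01190 and -1.95 for AT1G44160. They were -1.98 for AT5G43520, -1.75 for AT5G64100, -1.86 for AT4G19520, -2.17 for AT1G14960, -4.79 for AT3G57950, -3.49 for AT1G28160 and -4.91 for AT4G31470. Several of these genes, among them AT5G40020 and the last 3, had signals near the floor, so the size of their values is not settled. With the pseudocount the line differences with DEX of the last 3 were -1.08, -1.78 and -1.69.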

How the results depend on the processing

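Without the replicate block (no pairing) 196 probe sets were higher and 104 lower with DEX, 6 and 0 without DEX, and 51 and 38 in the test of the difference. With eBayes without a variance trend 10 were higher and 1 lower without DEX, and 349 higher and 228 lower with DEX. Leaving out 1 array at a time gave 340 to 439 higher and 221 to 313 lower with DEX, 13 to 16 and 1 to 5 without DEX, and 93 to 133 and 85 to 119 for the difference. The count of lower probe sets without DEX was 5 without replicate 2 of the empty-vector line with CHX and 1 without replicate 4 or 5 of the VND7 line with CHX, against 3. All other counts of probe sets stayed within 1.5 times. With DEX they were 328 and 200 from the 10 DEX arrays alone, 431 and 320 after quantile normalization, 468 and 335 with the pseudocount, 375 and 263 without the dimmest 40%, and 426 and 286 with the sets of replicates as the block. Of the 51 named genes 37 kept their call in every setting and 13 lost it without the block. Over 847 gene values 777 kept direction and call, 70 lost the call and 0 reversed. The cause of these shifts was not tested. Genes near the floor of the scale have an order of size that low signals limit.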
